A study of Mus musculus with 8 samples.

Results

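Splicing factor and hnRNP genes were taken as the genes whose array name begins with Snrp, Sf3a, Sf3b, Srsf, Sfrs, Prpf or Hnrnp, which gave 64 of the 36163 gene names on the arrays. They fell into 12 Snrp genes, 8 Sf3a or Sf3b genes, 13 Prpf genes, 13 Srsf or Sfrs genes and 18 Hnrnp genes. E14Tg2A mouse ES cells, a 129/Ola line, were sampled undifferentiated in serum and LIF (ES, 0 DIV, days in vitro). The next samples were floating aggregates resembling epiblast (ELA, 2 DIV) and adherent neural progenitors (NPC, 6 DIV). The last were neural precursors (NPC/Neu, 10 DIV), from the step meant to drive terminal differentiation. The stages after ES were in chemically defined minimal medium, in the last step without its B27 supplement. At each stage 1 array measured total RNA and 1 array measured Ago–RNA, the RNA that came down from the cytosolic fraction with an antibody against all Argonaute (Ago) proteins. The series compared the stages to find which mRNAs were held by Ago, and which were released from it or loaded on it, as the cells left pluripotency. Each of the 8 arrays received RNA pooled from 3 independent experiments of the same line. No value therefore has a replicate, and no p-value is given. By the paper's methods each experiment pooled 3 samples for ES cells and 10 for the later stages. Pool size thus differed between ES cells and the stages set against them.

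The spliceosome removes introns from nuclear pre-mRNA. Snrp genes encode proteins of the small nuclear ribonucleoproteins, Sf3a and Sf3b genes encode the subunits that hold the U2 particle at the branch point, and Prpf genes encode factors of the U4/U6.U5 tri-snRNP and of other steps. SR proteins (Srsf) and hnRNPs bind exons and introns and shift the choice of splice sites. The mRNAs of all of them are translated in the cytosol, where Ago proteins loaded with miRNAs bind target mRNAs, so Ago–RNA reports on the mRNAs and not on the splicing proteins.

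Ago enrichment (E) is the log2 ratio of the normalized Ago–RNA signal to the normalized total RNA signal at a stage, and its change between stages (ΔE) is the difference of those ratios. A gene's value is the mean over its probes that were well above background on all 8 arrays. Of 104 probes for these genes 101 met this criterion, each of the 64 genes kept at least 1 of them, and none was saturated. The exceptions were 1 probe each of Snrpc, Snrpn and Srsf11. Over 245 probes printed in 10 spots, the spread between spots gave an SD of 0.0846 for E in ES cells, 0.123 for ΔE from ES to ELA and 0.108 for the total RNA change between these stages. The ES Ago–RNA array stood apart in brightness, with an upper quartile of mean spot signal of 3039, where the others lay between 1060 and 1774. The spot SD covers spots of an array only, and not differences between cultures or immunoprecipitations. Among stage markers, the log2 total RNA signal of Pou5f1 was 15.21, 14.76, 7.98 and 8.31 from ES to NPC/Neu. That of Fgf5, a marker of primed epiblast, was 11.96, 14.78, 7.48 and 7.89. Other primed epiblast markers were mixed. Dnmt3b had 16.35, 17.67, 12.12 and 11.68 and Pou3f1 14.65, 15.47, 11.52 and 13.09, while Otx2 stayed between 15.53 and 16.06. The progenitor marker Sox1 had 8.32, 8.39, 10.59 and 10.88. The neuronal tubulin gene Tubb3 had 12.95, 13.65, 14.99 and 17.01, and the neuronal gene Nefl 13.26, 11.41, 13.84 and 16.03. Col3a1, a mesenchymal gene, also went from 7.17 in ES cells to 11.41 in NPC/Neu, and fewer cells of a type cannot be told apart from less RNA per cell in such cultures.

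The arrays read each mRNA through probes of 60 bases. Of the 104 probes 62 lay in a 3′ UTR, 24 in coding sequence and 6 elsewhere in a protein-coding GENCODE transcript, and 12 had no exact match in one. The coding probes of Prpf6 and Hnrnpl, whose Ago enrichment was lower in ELA than in ES cells, of Snrpd2 and Snrpd3, whose enrichment was higher in ELA, and of Snrpn, whose total RNA was lowest in NPC, are shown in 5′ to 3′ direction of the mRNA, with no base marked since the whole probe hybridizes. Their places on mm9 are chr2:181389577-181389636 on the plus strand for Prpf6, chr7:29605608-29605667 on the plus strand for Hnrnpl, chr7:19737898-19737957 on the plus strand for Snrpd2, chr10:74994982-74995041 on the plus strand for Snrpd3 and chr7:67132330-67132389 on the minus strand for Snrpn.
Prpf6: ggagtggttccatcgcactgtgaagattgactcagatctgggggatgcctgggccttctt
Hnrnpl: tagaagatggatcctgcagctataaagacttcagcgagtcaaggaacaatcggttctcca
Snrpd2: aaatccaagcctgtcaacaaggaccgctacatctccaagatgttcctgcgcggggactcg
Snrpd3: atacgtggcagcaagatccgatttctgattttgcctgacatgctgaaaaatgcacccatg
Snrpn: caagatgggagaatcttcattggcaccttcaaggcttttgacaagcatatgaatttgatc

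Near-identical sequence elsewhere in the genome was common. Of the 104 probes 42 had more than 1 place on mm9 with at least 57 of 60 identical bases, and 10 had 5 or more. For 18 genes every probe had more than 1 such place, so their signal may include near-identical copies. Prpf6, read by a single probe, was among them. Of the probes shown above, those of Prpf6, Snrpd2 and Snrpn had 2 such places and those of Hnrnpl and Snrpd3 had 1. The probes with most places belonged to Hnrnpa3, an hnRNP A/B family gene with 7 probes and up to 29 places. The probe named Srsf12 matched a transcript of Srek1, and the probe named Srsf13b matched a transcript of Srsf12. Both are called here by the array's name.

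In ES cells these genes spread over a wide range of Ago enrichment, from -2.08 for Snrpf to 2.15 for Prpf6. E was at or above 1 (2-fold) for 17 of the 64 genes (26.6%), against 12.5% of the 18548 genes measured there. It was at or below -1 for 6 genes (9.38%), against 12.8% of all genes. The median was 0.37, and 0.04 over all genes. With each array's processed signal scaled to its 75th percentile instead, 9 genes were at or above 1 (11.5% of all genes were) and 11 at or below -1 (22.9%). The median of the 64 genes was then 0.051, and that of all genes -0.23. Relative to the median of all genes, that of the 64 genes was 0.33 with quantile normalization and 0.28 with this scaling. In ELA the same genes lay close together. None had E of 1 or more, where 4.01% of all genes did, and none had E of -1 or less, where 2.23% did. Between ES cells and ELA the SD over the 64 genes went from 0.995 to 0.32, while over all genes it went from 0.911 to 0.536.

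The spread returned later. In NPC 4 genes (6.25%, the same share as the 6.25% of all genes) reached 1, namely Prpf8, Sf3b3, Sf3b1 and Hnrnpul2, and 7 (10.9%, against 6.14%) were at or below -1. In NPC/Neu 12 genes (18.8%, against 12.8%) were at or above 1 and 12 (18.8%, against 12.7%) at or below -1. Across the 64 genes E in ES cells and E in NPC/Neu correlated with Pearson's r of 0.819 and Spearman's rho of 0.813, and across all genes with 0.801 and 0.779. This is a description across genes, which are not independent replicates and share their probes, lengths and base composition between stages. E in ES cells and E in ELA correlated less closely over the 64 genes, with r of 0.514 and rho of 0.494.

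**Figure D1:**
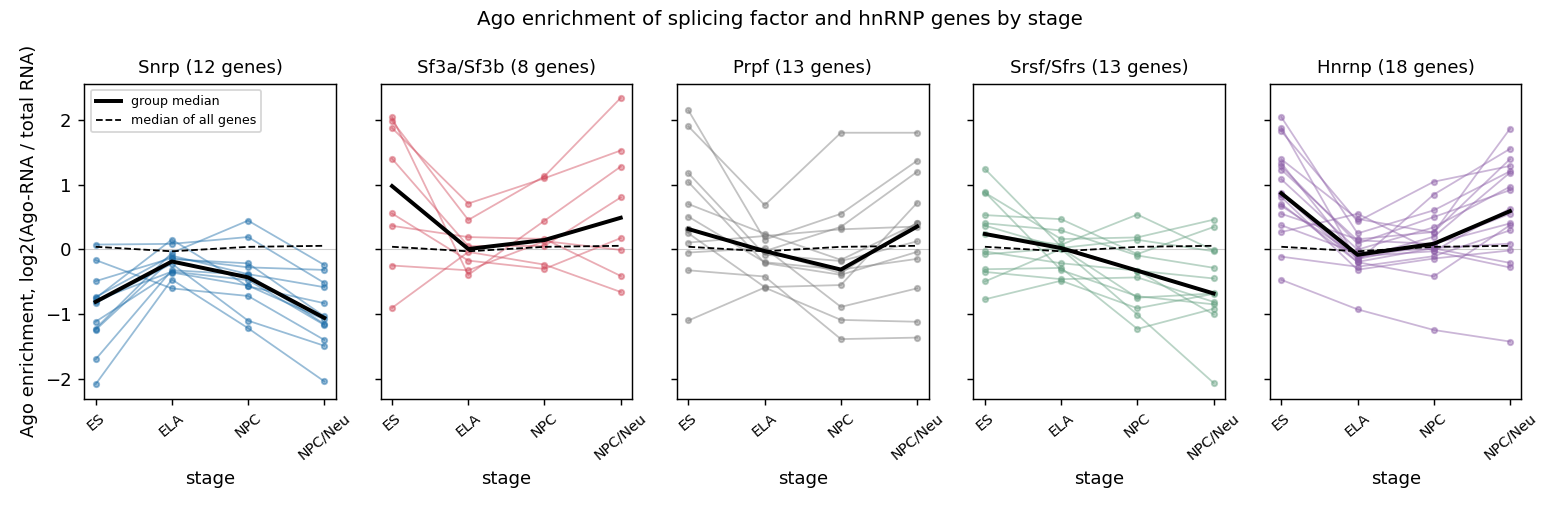
Ago enrichment (log2 of Ago–RNA over total RNA, y axis) of each gene at the 4 stages (x axis), in 1 panel per name group. Thin lines are genes, the thick line is the group median and the dashed line is the median of all genes measured, with 1 array of each kind per stage. All but 1 of the Snrp genes lie below 0 in ES cells and all 12 in NPC/Neu, Sf3a, Sf3b and Hnrnp genes mostly above it, and all groups draw together in ELA.

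The groups differed in direction. For counts by sign, 9649 of all 18548 genes had a positive E in ES cells and 8899 a negative one. ΔE from ES to ELA was positive for 9051 of 18491 genes and negative for 9440. In NPC/Neu E was below 0 for 8699 of 18515 genes, and ΔE from NPC to NPC/Neu was negative for 8990 of 18492. Snrp genes were depleted from Ago–RNA in ES cells, with a median E of -0.81 and negative values for 11 of 12. Snrpf, Snrpd2, Snrpd3 and Snrpe, which encode subunits of the heptameric Sm ring that is built around spliceosomal snRNA, had E of -2.08, -1.70, -1.24 and -1.22, and Snrpc, which encodes protein C of the U1 particle, had -1.12. Snrpa, which encodes protein A of U1, was the exception at 0.08, and Snrpb, the gene for SmB, was near 0 at -0.16. From ES to ELA 11 of the 12 Snrp genes had a positive ΔE, with a median of 0.70. Snrpb alone was negative, at -0.44. The median E in ES cells was -1.24 with 75th percentile scaling. Relative to the median of all genes it was -0.85 with quantile normalization and -1.01 with that scaling. By NPC/Neu all 12 were below 0, with a median of -1.06, and all 12 had a negative ΔE from NPC to NPC/Neu.

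Snrpf, on chromosome 10 of mm9 from 93045774 to 93052451, marked the low end. Its log2 total RNA signal was 15.20, 15.24, 15.20 and 14.80 in ES, ELA, NPC and NPC/Neu. Its Ago–RNA signal was 13.12, 14.77, 13.98 and 12.76 at the same stages. The total RNA was thus level while the Ago–RNA was highest in ELA, and E went from -2.08 to -0.46 and back to -2.04. Snrpd2 behaved alike through all 3 of its probes, whose E in ES cells was -1.72, -1.71 and -1.67 and whose E in ELA was -0.38, -0.30 and -0.28.

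Sf3a and Sf3b genes were enriched in ES cells, with a median E of 0.98 and positive values for 6 of 8. Those for the large subunits led. Sf3b2 had E of 2.05, Sf3b3 of 1.99, Sf3b1, whose product contacts the branch point, of 1.88 and Sf3a1 of 1.40. Sf3b5, which encodes a small subunit, had -0.90 and Sf3b4 had -0.25. The median in ELA was 0.01, and 7 of 8 had a negative ΔE from ES to ELA (9440 of 18491 over all genes). With 75th percentile scaling the median was 0.36 in ES cells and the median ΔE -0.30. Relative to the medians of all genes, E was 0.94 with quantile normalization and 0.59 with that scaling, and ΔE -0.93 and -0.42. In NPC/Neu the median was 0.49, and Sf3b3 had the highest E of all 64 genes there, at 2.34. Sf3b3 had E of 0.46 in ELA and 1.13 in NPC, so ELA was its lowest stage.

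Sf3b2, on chromosome 19 from 5273923 to 5295455, had the most negative ΔE from ES to ELA of the 64 genes, at -2.44. Its log2 Ago–RNA signal was 17.11, 15.30, 15.76 and 16.75 from ES to NPC/Neu. Its total RNA signal was 15.06, 15.69, 15.32 and 15.46. The Ago–RNA signal was lower in ELA by 1.81 and the total RNA signal higher by 0.63, so both moved E the same way.

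Prpf genes were mixed. Their median E over the 4 stages was 0.32, -0.03, -0.31 and 0.36. Prpf6, the gene for a protein that bridges the parts of the tri-snRNP, had E of 2.15 in ES cells, and Prpf8, the gene for the large U5 protein at the catalytic centre, had 1.90. Prpf40b and Prpf3 followed at 1.18 and 1.04. Prpf38a lay at the other end, with -1.10, -0.59, -1.09 and -1.12 over the 4 stages. From ES to ELA 10 of 13 had a negative ΔE (9440 of 18491 over all genes). From NPC to NPC/Neu 12 of 13 had a positive one (9502 of 18492). Prpf19, which encodes a ubiquitin ligase of the spliceosome, had the largest rise of the Prpf genes at the latter transition, from -0.55 to 0.72.

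Prpf6 lies on chromosome 2 from 181326573 to 181390365. Its log2 total RNA signal was 14.59, 14.44, 14.45 and 14.50, a range within 0.16, while its Ago–RNA signal was 16.74, 14.59, 15.00 and 15.87. Prpf8, on chromosome 11 from 75300279 to 75322951, had a total RNA signal of 17.35, 17.27, 17.16 and 17.59 and an Ago–RNA signal of 19.26, 17.95, 18.97 and 19.40. Both genes had level total RNA and their lowest Ago–RNA signal in ELA. For Prpf8 this rests on the scaling, since its ΔE from ES to ELA was -1.22 with quantile normalization and 0.04 with 75th percentile scaling.

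Srsf and Sfrs genes stayed closer to 0 in ES cells and ended lower. Their median E was 0.24, 0.02, -0.33 and -0.68 from ES to NPC/Neu. E was lower in NPC/Neu than in ES cells for 12 of 13, and for 8905 of 18510 genes measured. It was also lower for 46 of the 64 genes, among them 15 of 18 Hnrnp, 9 of 13 Prpf, 5 of 8 Sf3 and 5 of 12 Snrp genes. The median in ES cells was -0.10 with 75th percentile scaling and -0.03 with all probes used, so its sign is not settled. Relative to the median of all genes it was 0.20 with quantile normalization, 0.13 with 75th percentile scaling and -0.056 with all probes. Srsf3, the gene for the smallest classical SR protein, was lowest in ES cells at -0.77. Srsf5 and Srsf13b had the largest falls from ES to ELA, each with ΔE of -1.20. Sfrs18, which is an older name of Pnisr, had E of -0.50, 0.01, -1.01 and -2.06, the lowest value of the 64 genes in NPC/Neu.

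Srsf13b, on the array by a probe in the 3′ UTR of Srsf12 (chromosome 4, 33295966 to 33320315), changed sides. Its E was 1.25, 0.04, -0.33 and -1.0. Its log2 total RNA signal was 8.69, 8.70, 9.74 and 9.75 and its Ago–RNA signal 9.94, 8.75, 9.41 and 8.75. Total RNA was thus higher at the later stages while Ago–RNA did not exceed its level in ES cells. Its total RNA signal was the lowest of the 64 genes in ES cells and in NPC/Neu.

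Hnrnp genes were enriched in ES cells nearly throughout, with a median E of 0.87 and positive values for 16 of 18. Hnrnpu, the gene for a nuclear matrix-associated hnRNP, led with 2.05, followed by Hnrnpm at 1.88, Hnrnpul2 at 1.83, Hnrnpf at 1.40 and Hnrnph1 at 1.33. The exceptions were Hnrnpr at -0.11 and Hnrnpa2b1 at -0.47. Their median fell to -0.08 in ELA and stood at 0.09 in NPC and 0.59 in NPC/Neu. From ES to ELA 17 of 18 had a negative ΔE (9440 of 18491 over all genes), with a median of -1.04, and Hnrnph3 was the exception at 0.28. With 75th percentile scaling the median E in ES cells was 0.40 and the median ΔE -0.56. Relative to the medians of all genes, E was 0.83 with quantile normalization and 0.63 with that scaling, and ΔE -1.02 and -0.68. From NPC to NPC/Neu 15 of 18 had a positive ΔE (9502 of 18492 over all genes).

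Hnrnpu, on chromosome 1 from 180253205 to 180267928, had a log2 Ago–RNA signal of 16.64, 15.18, 15.58 and 16.12 and a total RNA signal of 14.59, 14.93, 14.98 and 14.92. Hnrnpm, on chromosome 17 from 33783178 to 33823805, had an Ago–RNA signal of 18.10, 16.09, 17.16 and 18.20 and a total RNA signal of 16.21, 16.27, 16.31 and 16.64. Hnrnpm thus regained in NPC/Neu the Ago–RNA signal of ES cells, and Hnrnpu a part of it. Hnrnpa2b1 was the lowest Hnrnp gene at every stage, with E of -0.47, -0.93, -1.25 and -1.42, at 3′ UTR probes that each had 1 place in the genome.

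Counted over all groups, E fell by 1 or more from ES to ELA for 20 of the 64 genes (31.2%), against 7.24% of the 18491 genes measured at both stages. It rose by 1 or more for 4 genes (6.25%, against 8.84%), which were Snrpf, Snrpd2, Snrpe and Snrpd3. The 20 were 10 Hnrnp genes, 4 Sf3 genes, 4 Prpf genes and 2 Srsf genes. With 75th percentile scaling 11 genes fell by 1 or more (17.2%, against 6.99% of all genes) and 7 rose, where 16.6% of all genes rose. That scaling shifted the median E of all genes in ES cells from 0.04 to -0.23. Relative to the median of all genes, the median ΔE of these genes was -0.35 with quantile normalization and -0.33 with 75th percentile scaling.

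The fall in E came mainly with the Ago–RNA signal. Among the 20 genes the median change of the Ago–RNA signal was -1.22 and that of the total RNA signal 0.09. The Ago–RNA signal was lower by at least 1 for 14 of them, and total RNA changed by less than 0.5 for 17. Among the 4 genes that rose, the median change was 1.16 for Ago–RNA and -0.07 for total RNA. For 18 of the 20, E in NPC/Neu was above that in ELA, and for all 4 that rose it was below that in ELA. These genes were picked by their change into ELA and compared with the same ELA arrays. That choice alone favours a return, so these counts are a description only. Shares over all genes are not given for the counts of this paragraph.

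**Figure D2:**
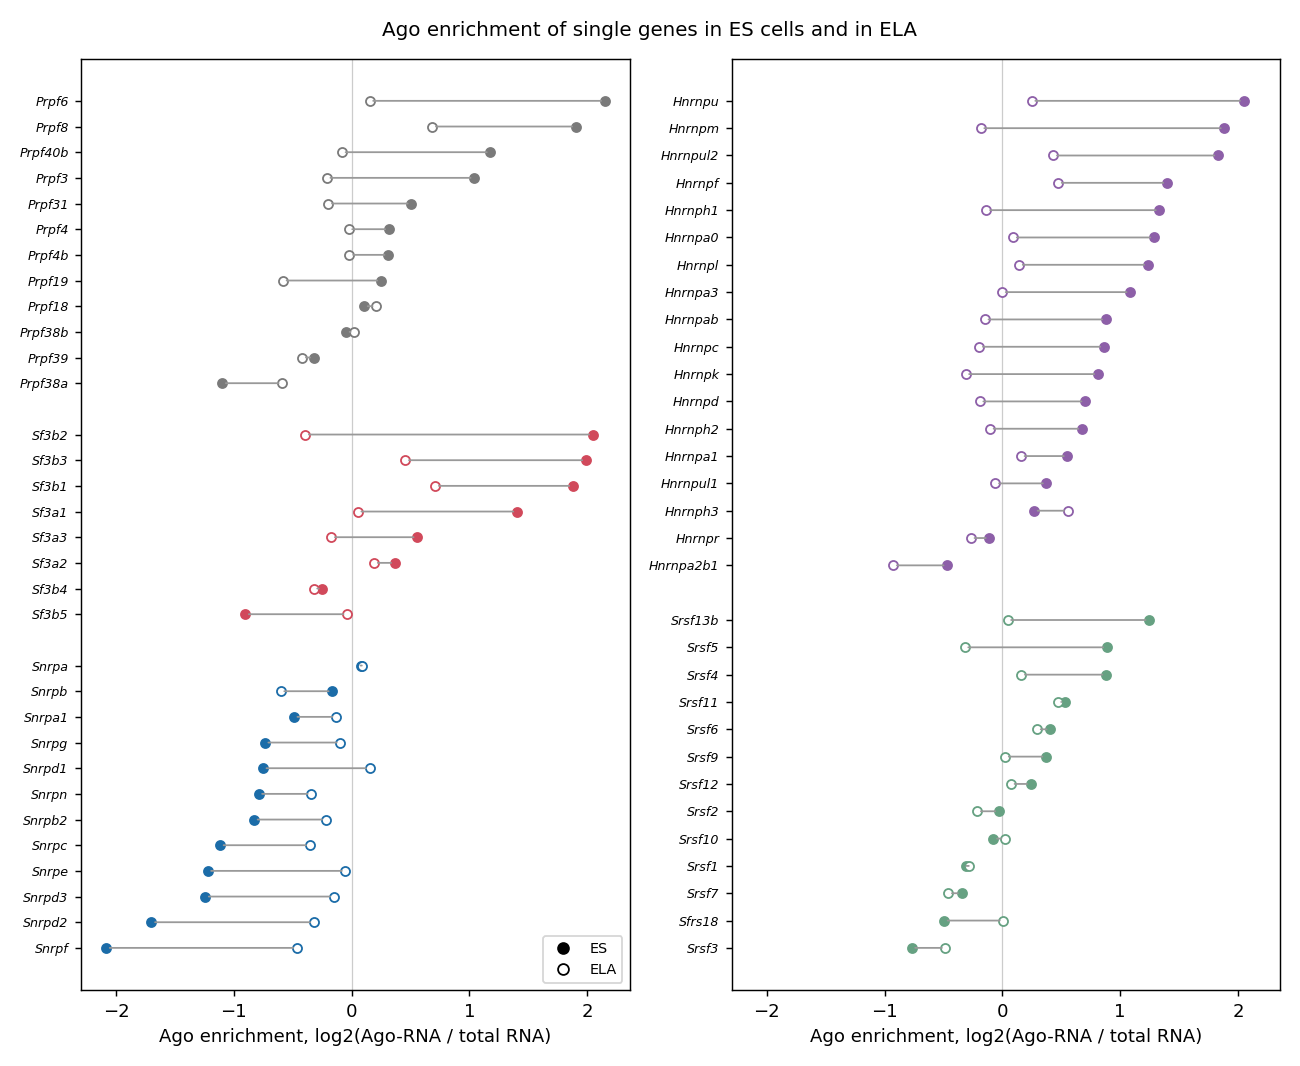
Ago enrichment (log2 of Ago–RNA over total RNA, x axis) of 63 of the 64 genes in ES cells (filled circles) and in ELA (open circles), with 1 array of each kind per stage. Genes are ordered by their value in ES cells within each name group. Values in ELA lie between -0.93 and 0.71, and high genes fell towards 0 while low Snrp genes rose towards it.

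By the study's criteria, release from Ago at the ES–ELA transition required an Ago–RNA signal over the threshold for binding, E of at least 2 in ES cells and at most 0.5 in ELA, and ΔE of -1.5 or lower. By them 3 of the 104 probes (2.88%) were released, against 0.19% of the 55681 probes on the array. The 3 were those of Hnrnpu, Prpf6 and Sf3b2, of which that of Prpf6 had 2 near-identical places in the genome and the others 1 each. Of all 55681 probes only 24634 were well above background on all 8 arrays, against 101 of the 104. Shares over all probes thus include many that could hardly meet the criteria, which widens the contrast. None of the 104 was loaded at that transition (0.133% of all probes were). None was released (0.0862%) or loaded (0.0287%) from ELA to NPC, and none was released (0.0287%) or loaded (0.0359%) from NPC to NPC/Neu. Allowing E of up to 1.2 at the other stage added 1 probe, of Hnrnpf, loaded from NPC to NPC/Neu, where 0.0934% of all probes then were. The released count was 0 with 75th percentile scaling and 1 with Ago–RNA and total RNA normalized separately. Sf3b3 at 1.99 and Hnrnpm at 1.88 lay just under the limit of 2 in ES cells, with ΔE of -1.53 and -2.07.

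Changes at the later transitions were fewer. From ELA to NPC, E rose by 1 or more for 2 genes (3.12%, against 1.69% of all genes), Prpf8 and Hnrnpm, and fell by 1 or more for 1 (1.56%, against 3.40%), Sfrs18. From NPC to NPC/Neu it rose by 1 or more for 4 genes (6.25%, against 2.04%), Hnrnpf, Prpf19, Sf3b3 and Hnrnpa1, and fell for 1 (1.56%, against 4.21%), again Sfrs18. Hnrnpf reached 1.87 in NPC/Neu from 0.26 in NPC. Its probes differed in NPC/Neu, with 1.255 and 2.479, and had 8 and 3 near-identical places in the genome. The probes of Hnrnpa1 had 9 and 8 such places. Between the first and the last stage no gene rose by 1 or more, where 3.96% of all genes did, and 7 fell (10.9%, against 5.08%). These were Srsf13b, Srsf5, Sfrs18, Snrpb, Prpf3, Prpf39 and Prpf40b.

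Total RNA of these genes changed little. From ES to ELA no gene changed by 1 or more on the log2 scale in either direction, where 4.30% of all genes rose and 3.33% fell by as much. The largest rise was 0.88, for Hnrnph3. From ELA to NPC 2 genes rose (3.12%, against 9.93%), Hnrnph3 by 1.5 and Srsf13b by 1.03, and 1 fell (1.56%, against 8.82%), Snrpn. From NPC to NPC/Neu none changed by 1 or more, where 4.83% of all genes rose and 4.48% fell. Between ES cells and NPC/Neu 4 genes rose by 1 or more (6.25%, against 16.4%), Hnrnph3, Sfrs18, Hnrnpr and Srsf13b, and 2 fell (3.12%, against 16.7%), Snrpn and Prpf19. Over this interval all 12 Snrp genes were lower, with a median change of -0.36, and 15 of 18 Hnrnp genes were higher, with a median of 0.33. Of all 18547 genes, 10073 were lower and 8474 higher.

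Snrpn encodes SmN, a form of SmB that is abundant in neurons, from an imprinted locus on chromosome 7 from 67127388 to 67285105. Its log2 total RNA signal over the 4 stages was 14.10, 14.73, 11.76 and 12.42. The change from ELA to NPC was -2.98, and it was -2.99, -2.96 and -2.34 at its 5′ UTR, coding and 3′ UTR probes, of which the 3′ UTR probe was above background on 6 arrays only. Snrpb, the gene for SmB itself, stayed between 14.17 and 14.82. Hnrnph3, an hnRNP H/F family gene on chromosome 10 from 62477412 to 62486965, went the other way, with 8.94, 9.82, 11.32 and 10.87 in total RNA and 9.21, 10.37, 11.29 and 10.59 in Ago–RNA. Its E stayed between -0.28 and 0.55, so both RNA pools rose together.

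**Figure D3:**
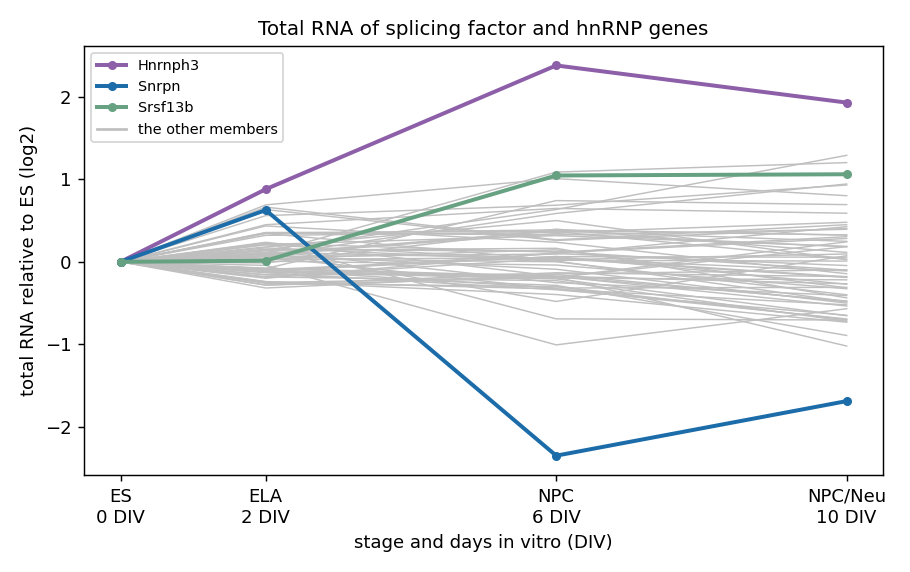
Total RNA signal of each of the 64 genes relative to ES cells (log2 difference, y axis) against days in vitro (x axis), with 1 array per stage. Snrpn, Hnrnph3 and Srsf13b are coloured and the other genes are grey. Snrpn was 1.69 below its ES level at 10 DIV and Hnrnph3 1.93 above it, while most genes stayed near 0.

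Ago enrichment varied with the length of the mRNA, among these genes as among all. Length was that of the longest GENCODE transcript that held a detected probe, known for 63 of the 64 genes. Snrp transcripts were short, with a median of 865 bases, while the median was 2722 for Sf3, 3308 for Prpf, 3100 for Srsf and 2970 for Hnrnp genes and 2904 for all 12707 genes with a length. Across the 63 genes, E in ES cells correlated with log2 length with r of 0.659 and Spearman's rho of 0.554, and across all genes with 0.597 and 0.611. In ELA r was 0.337 for the 63 genes and in NPC/Neu 0.50. For ΔE from ES to ELA r was -0.626 over the 63 genes and -0.482 over all genes. These are descriptions across genes of the same arrays.

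All genes were then divided into 10 classes of equal size by length, and each gene was set against the median of its class, a comparison chosen after the values were seen. In the shortest class the median E of all genes in ES cells was -0.73, and in the longest 1.05. Against their classes the Snrp genes had a median difference of -0.44 in ES cells, with 10 of 12 below. The Hnrnp genes had 0.75, with 14 of 17 above, and the Sf3 genes 0.69, with 6 of 8 above. The Prpf genes had -0.24, with 7 of 13 below, and the Srsf genes 0.02, with 6 of 13 below. For ΔE from ES to ELA the median difference was -0.90 for Hnrnp genes, with 16 of 17 below, -0.76 for Sf3 genes and 0.39 for Snrp genes. Prpf genes differed from their classes by 0.01 and Srsf genes by 0.13. Over all 63 genes it was -0.14, with 37 below and 26 above. In NPC/Neu the median difference of E was -0.64 for Srsf genes, with 10 of 13 below, and -0.58 for Snrp genes, with 11 of 12 below. It was -0.165 for Prpf genes, 0.28 for Hnrnp genes and 0.21 for Sf3 genes. The part of length in these values was not tested.

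**Figure D4:**
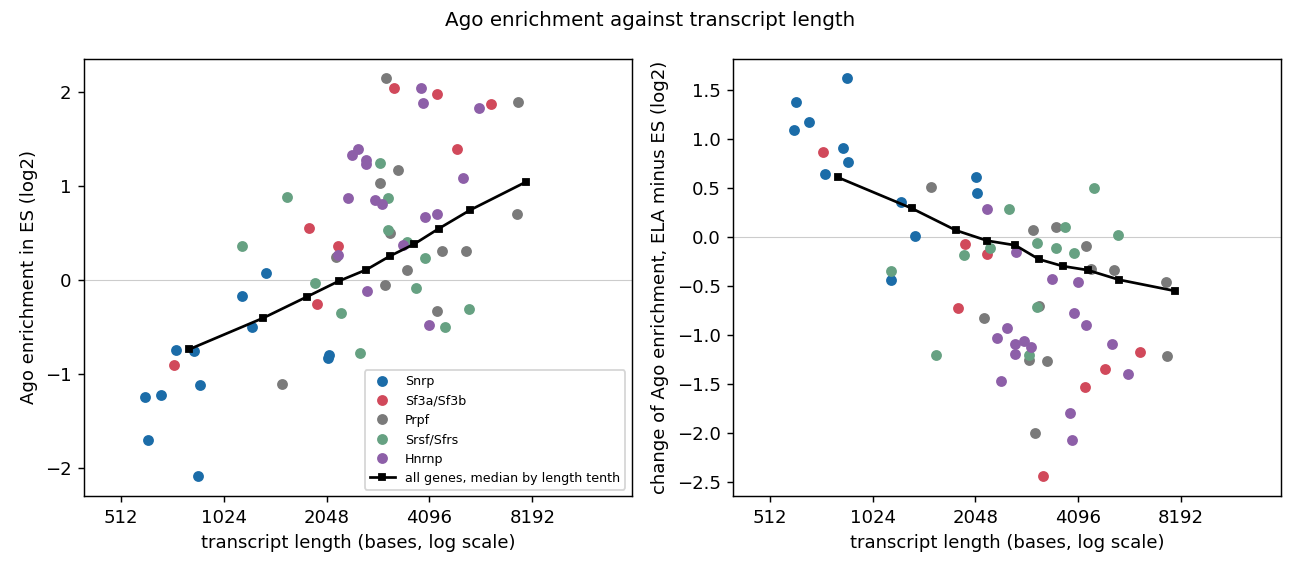
Ago enrichment in ES cells (left, log2) and its change from ES to ELA (right, log2) against transcript length in bases (log axis), for 63 genes coloured by name group. The black line joins the medians of all genes in 10 length classes, drawn at the median length of each. By group median Snrp genes are the shortest and lowest in ES cells, and most Hnrnp genes lie above the line on the left and below it on the right.

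Most of these genes were bright. When all genes were divided into 10 classes by their mean signal over the 8 arrays, 42 of the 64 lay in the 2 brightest. Signal classes moved with E and with the scaling. In the brightest class the median ΔE of all genes from ES to ELA was 0.31 with quantile normalization and 0.97 with 75th percentile scaling. Set against genes of the same signal class, the values moved less with the scaling. The median difference in ΔE was -0.36 with either scaling over the 64 genes, -1.21 and -1.22 for Hnrnp genes, -1.06 and -1.21 for Sf3 genes, and 0.60 and 0.48 for Snrp genes.

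Probes of the same gene mostly gave like values. Among 27 genes with several detected probes, the median range of E between them in ES cells was 0.37, and it exceeded 1 for Hnrnpa0, Hnrnpc, Srsf3 and Srsf6. Hnrnpc, which encodes a protein of the hnRNP core particle, had 0.29 at its coding probe and 1.43 at its 3′ UTR probe, and Hnrnpa0 had 0.77 and 1.81. Srsf3 ran the other way, with 0.05 at its coding probe and -0.81 and -1.55 at its 3′ UTR probes. Srsf6, with both probes in the 3′ UTR, had -0.10 at the probe 308 bases from the transcript's end and 0.91 at that 2252 bases from it. In these 4 genes neither the coding nor the 3′ UTR probes were uniformly the more enriched.

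Matches to miRNAs of the miR-290 and miR-302 clusters that share a seed (bases 2 to 8, in capitals) were looked for in the 3′ UTRs. The level of these miRNAs was not analysed here. The mature sequences are those of RefSeq (build GRCm38.p6), from chromosome 7 for the miR-290 cluster and chromosome 3 for miR-302d.
mmu-miR-291a-3p: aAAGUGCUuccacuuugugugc
mmu-miR-294-3p: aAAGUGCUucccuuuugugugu
mmu-miR-295-3p: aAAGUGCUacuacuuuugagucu
mmu-miR-302d-3p: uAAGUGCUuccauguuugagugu

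The match to the seed, AGCACTT, searched on the mRNA strand only, was present in the 3′ UTR of 9 of 63 genes (14.3%) and of 15.8% of 12325 genes with a 3′ UTR in GENCODE. No Snrp and no Prpf gene had it in these 3′ UTRs. Among the 9 genes the median E in ES cells was 0.27, and among the genes of this group without it 0.37, with median ΔE to ELA of -0.46 and -0.34. Over all genes the medians of E were 0.39 with the match and 0.14 without, and those of ΔE -0.07 and -0.13, in 3′ UTRs of 2278 and 857 bases. Of the released genes none had the match. A match is only a description of the letters. One match each of Sf3b1, Sf3a1 and Hnrnpul2, with E of 1.88, 1.40 and 1.83 in ES cells, and of Hnrnpa2b1, with -0.47, is shown with 10 bases on each side and the match in capitals. The genes with a match that are not shown were Srsf1, Srsf10, Srsf12, Hnrnph3 and Srsf13b. Their E in ES cells was -0.306, -0.076, 0.24, 0.269 and 1.246. Sf3b1 and Hnrnpa2b1 each have 2 matches, of which the one nearer the start of the 3′ UTR was taken. On mm9 the matches shown lie at chr1:55042679-55042685 (minus strand) for Sf3b1, chr11:4081484-4081490 (plus strand) for Sf3a1, chr19:8906310-8906316 (plus strand) for Hnrnpul2 and chr6:51411313-51411319 (minus strand) for Hnrnpa2b1.
Sf3b1: gccatacctaAGCACTTttaaatgttt
Sf3a1: ttcctgttgaAGCACTTgtgtagcacc
Hnrnpul2: cacagaaagcAGCACTTagagctgcct
Hnrnpa2b1: tcatttaagaAGCACTTttaagaaaag

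Other genes of the spliceosome and of splicing regulation, from a list of 97 of which 92 were measured, are given beside these. Their median E was 0.24, -0.05, -0.06 and 0.02 over the 4 stages. From ES to ELA E fell by 1 or more for 16 of 92 (17.4%, against 7.24% of all genes). It rose by 1 or more for 6 (6.52%, against 8.84%). Snrnp200, which encodes the helicase that unwinds U4/U6, had ΔE of -2.18 and E of 2.72 in ES cells. The genes that rose included Lsm5, of the Lsm ring on U6, at 1.73 and Magoh, of the exon junction complex, at 1.37. As in the Sm genes, E of Lsm5 was negative in ES cells, at -2.15. In total RNA 11 rose (11.96%, against 16.4% of all genes) and 18 fell (19.6%, against 16.7%) by 1 or more between ES cells and NPC/Neu, led by the neural splicing factor gene Srrm4 at 6.21 and the epithelial one Esrp1 at -4.68.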

How the data were processed

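Total RNA and Ago–RNA of E14Tg2A cells at 4 stages were hybridized to Agilent one-color arrays (8 arrays, 1 per condition, 1 slide, 1 scan run). The authors deposited spot intensity (mean, local background and processed signal) as written by Feature Extraction, 10.7.3.1 per the file headers and 9.1 per the submitters' processing notes, without normalization between arrays. The precision is limited by the number of arrays. Intensity was corrected with normexp (offset 50, limma 3.58.1), irregular spots were left out, and log2 values were quantile normalized and averaged per probe, which does not keep differences in overall RNA recovery. Genes were named from the array's gene names. Probes were matched to GENCODE M1 transcripts and, with blastn, to mm9. Criteria of release used T1, set 3 SD above the mean of the lower Gaussian component that mclust 6.1.1 fitted. As a check of the code, 1 array was copied 8 times with small noise, and 200 bright probes were raised on 1 copy by a set factor above 2-fold. Of these 198 passed log2 1, and 0 of the others did. That outcome was largely set in advance. It covers neither E, ΔE and the release criteria nor differences between cultures or immunoprecipitations. Members, lists and tests were chosen with earlier results of these data known. Named genes were, per name group, the highest and lowest per quantity, genes past log2 1 in total RNA, released or loaded genes, genes with disagreeing probes, and a list of known roles; others are named by count. Alternatives were 2 other offsets, the processed signal with either scaling, separate normalization of Ago–RNA and total RNA, all probes, medians over probes, and a fold of log2 1.5. The labels state 50 ng of labelled RNA. Control immunoprecipitations were not analysed here, and single values of 2 genes are not reported here.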

Additional observations from a re-analysis of the deposited data

Results flagged for a closer look

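Ago enrichment of Srsf13b went from 1.25 at the ES stage to -1.0 in NPC/Neu. It was the 1 gene of the 64 with E of at least 1 at a stage and of -1 or less at another. With 1 array per condition the difference was not tested.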

How the results depend on the processing

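Offsets of 16 and 0 and the median over a gene's probes kept the medians and counts close to those reported, except that 2 genes fell in total RNA from ELA to NPC with an offset of 0, and also with the processed signal quantile normalized. The latter gave the Sf3 genes a median E of 1.12 in ES cells. With all probes the median E was -0.81 for Snrp genes in NPC/Neu and -0.03 for Srsf genes in ES cells. With 75th percentile scaling of the processed signal, the median E of the 64 genes was 0.051 in ES cells and 0.093 in NPC/Neu, the median ΔE -0.21 from ES to ELA and 0.23 from NPC to NPC/Neu, and the median total RNA change -0.30 from ELA to NPC and -0.35 from NPC to NPC/Neu. Then 9 genes had E of 1 or more and 11 of -1 or less in ES cells, 7 had -1 or less in NPC/Neu, 11 fell and 7 rose from ES to ELA, 3 fell in total RNA from ELA to NPC, and 0 probes were released. The medians in ES cells were -1.24 for Snrp, 0.36 for Sf3, -0.10 for Srsf and 0.40 for Hnrnp genes. In NPC/Neu they were -0.80 for Snrp, 0.58 for Sf3, 0.47 for Prpf, -0.54 for Srsf and 0.70 for Hnrnp genes. Those of ΔE from ES to ELA were 1.0 for Snrp, -0.30 for Sf3, 0.02 for Srsf and -0.56 for Hnrnp genes, and Prpf8 had 0.036. Over all genes the medians with this scaling were -0.23 for E in ES cells, -0.10 in NPC/Neu, and 0.12 for ΔE from ES to ELA. With Ago–RNA and total RNA normalized separately, the median of all genes in ES cells was 0.23, and that of the 64 genes was 0.71, 0.21, 0.24 and 0.33 from ES to NPC/Neu. Then 3 genes in ES cells and 5 in NPC/Neu had -1 or less, and 1 probe was released. The medians in ES cells were -0.60 for Snrp, 1.26 for Sf3, 0.73 for Prpf, 0.45 for Srsf and 1.2 for Hnrnp genes, and in NPC/Neu -0.69, 0.85, 0.81, -0.34 and 1.01. With a fold of log2 1.5 in place of 1, 8 genes were high and 2 low in ES cells, 5 high and 2 low in NPC/Neu, 5 fell and 1 rose from ES to ELA, and 0 rose in total RNA from ELA to NPC, while 6 of the other splicing genes fell and 2 rose. The cause of these differences was not tested. No array could be left out and no block fitted, since each condition had 1 array and all lay on 1 slide. No paired analysis was possible because the groups share fewer than 2 replicate numbers.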
